A study of Arabidopsis thaliana with 4 samples.

Results

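The genes described here are 46 nuclear genes of *Arabidopsis thaliana* for the photosynthetic apparatus: 6 *LHCA* and 14 *LHCB* genes for the antennae of photosystem I and photosystem II, 12 *PSA* and 9 *PSB* genes for subunits of the photosystems, 4 *RBCS* genes for the small subunit of Rubisco, and *RCA* for Rubisco activase. They were chosen by gene family, with earlier results of these data known. Array probes were assigned to the genes through RefSeq accessions. All 46 were measured, with 159 of the 43603 probes, among 34290 genes and transcripts tested, of which 25410 carried a locus number.

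The mutant *bli-1* (SAIL_107_D04), a T-DNA insertion line of *BLISTER* (*BLI*), was compared with its wild type Columbia-0 (Col-0). *BLI* codes for a plant-specific protein that binds the Polycomb protein CURLY LEAF. Both genotypes were whole seedlings at 12 days after germination, grown on MS medium with sucrose under continuous light, with no other treatment. The insertion in *bli-1* carries a *LAT52:GUS* reporter. RNA of 2 samples per genotype was hybridized to Agilent 44k single color arrays, and the series' design describes the 2 samples as biological replicates. Only 1 mutant line was measured. Seeds of *bli-1* germinate 2 days late, and by the general growth methods they were put on plates 2 days ahead in direct comparisons, which the microarray methods do not restate.

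The light-harvesting proteins bind chlorophyll and pass excitation energy to the reaction centers of the photosystems, which drive electrons from water to NADP+. Rubisco fixes CO2 in the Calvin cycle, and Rubisco activase removes sugar phosphates that block its active site. The large Rubisco subunit and the reaction center cores are made from plastid genes, whereas the proteins of these 46 genes are made in the cytosol and imported into the chloroplast.

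All values are log2 signals after background correction and quantile normalization, averaged over the probes of a gene. Signals depend on the probe, so levels of different genes were not set against each other, apart from a sum over root markers. A gene was called differentially expressed at an adjusted p below 0.05 (limma, Benjamini-Hochberg over all 34290 genes and transcripts) together with a change of at least 1.5-fold. Between 74.8% and 91.7% of the gene spots of an array were well above background, with the highest share in replicate 2 of *bli-1*. Replicate 1 of *bli-1* was on slide 2 by itself and the other 3 arrays were on slide 1. All 159 probes of the 46 genes were well above background on all 4 arrays, and none was saturated or flagged as an outlier. *BLI* itself read 9.19 and 9.01 (Col-0) against 7.43 and 7.73 (*bli-1*). Its level in *bli-1* was 34.9% of that in Col-0 (log2 fold change -1.52 ± 0.17 SE, n = 2 per genotype, limma adjusted p = 0.0833). At least 1 of its 2 probes was well above background on every array, and both on 3 of the 4 arrays. Where they lie relative to the insertion was not determined. The authors detected no *BLI* transcript in *bli-1* by quantitative PCR on rosette leaves, so the array value is not a measure of intact transcript.

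None of the 46 genes was called differentially expressed, in either direction. Over the whole array 0.125% of the genes and transcripts were called, 0.102% as higher and 0.0233% as lower in *bli-1*. The median log2 fold change of the 46 genes was 0.07, against -0.01 over everything tested, and the median size of the change without its sign was 0.14, against 0.17. The mean of *bli-1* was above that of Col-0 for 31 genes and below it for 15. Changes of 1.5-fold or more, without a test, were seen for 4 genes (8.7%), and for 8.18% of everything tested. These 4 genes were *LHCB4.3*, *RCA* and *LHCA6*, lower in *bli-1*, and *LHCB1.4*, higher in *bli-1*. The same 4 genes had an unadjusted p below 0.05 at that fold change, against 5.19% of everything tested (2.5% higher and 2.69% lower). In whole seedlings, fewer cells of a type and less RNA per cell cannot be told apart.

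The width of the intervals sets what these arrays could show. The 95% interval of the fold change lay within 2-fold in both directions for 40 of the 46 genes, and within 1.5-fold for 21. Both *bli-1* arrays lay above both Col-0 arrays for 9 genes (19.6%, against 21.1% of everything tested) and below both for another 9 (19.6%, against 23%), and the arrays of the genotypes overlapped for the other 28. The shares of genes without overlap were thus near those of the whole array.

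**Figure D1:**
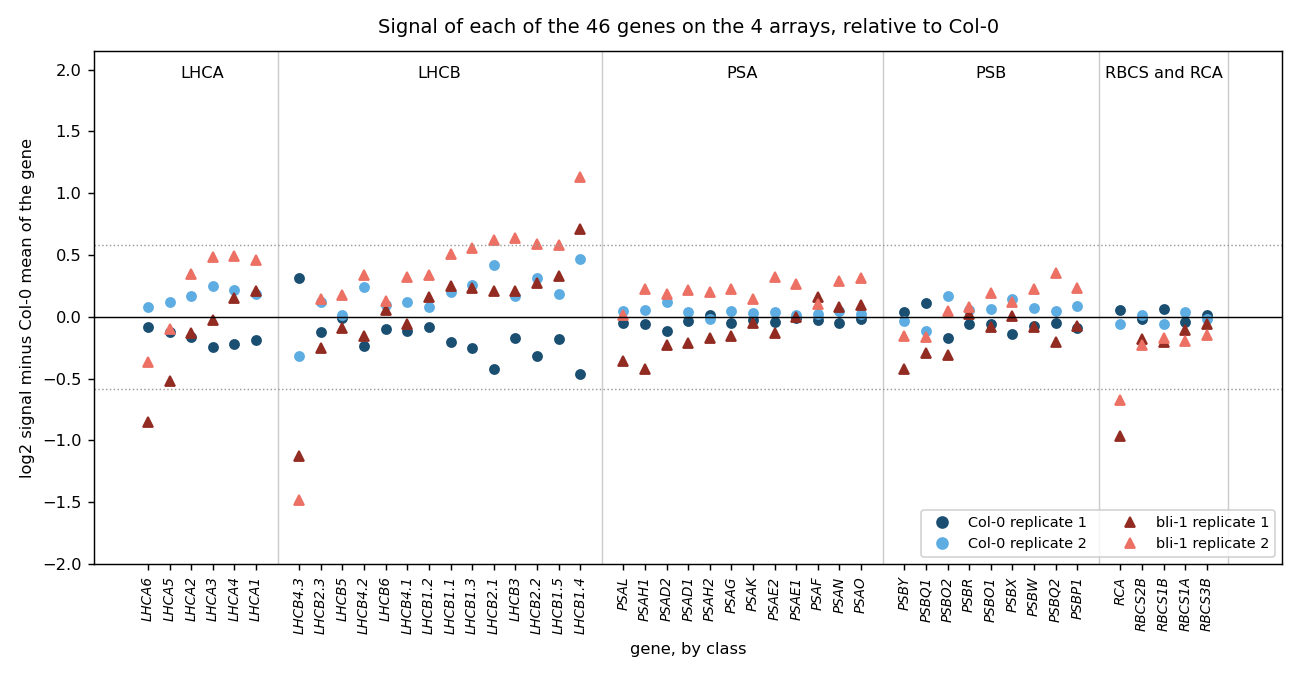
Signal of each of the 46 genes on each array, as log2 signal minus the mean of the 2 Col-0 arrays (vertical axis), by class and sorted by fold change (horizontal axis). Circles are Col-0 and triangles *bli-1*, and the dotted lines mark 1.5-fold; *LHCB4.3*, *LHCA6*, *RCA* and *LHCB1.4* are the genes with a mean change beyond that, and replicate 2 of *bli-1* is above replicate 1 for 41 of the 46 genes.

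The plot of single arrays also shows differences within the genotypes. The counts that follow were not taken over everything tested, so they do not show a trait particular to the 46 genes. Replicate 2 was above replicate 1 for 41 of the 46 genes in *bli-1* and for 39 in Col-0, and for 36 in both. Relative to the Col-0 mean of each gene, the median over the 46 genes was -0.07 and 0.07 on the Col-0 arrays and -0.08 and 0.22 on the *bli-1* arrays. The Col-0 values mirror each other by construction. Replicate 1 of *bli-1* was below both Col-0 arrays for 24 genes and replicate 2 was above both for 33. For 35 of the 46 genes the larger gap between replicates of a genotype exceeded the difference between the genotype means.

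The major antenna of photosystem II is a trimer of *LHCB1*, *LHCB2* and *LHCB3* proteins. *LHCB* was the class with the highest median (log2 fold change 0.32, 14 genes), with 12 genes higher and 2 lower in *bli-1*. Without overlap, 5 of the 14 lay above Col-0 and 1 below, against 21.1% and 23% of everything tested. The *LHCB* median was positive under each of 17 alternative settings. Relative to the median of all genes (0.27), however, it was -0.15 when the processed signal of the scanner was scaled to the 75th percentile. On the slide shared by both genotypes, which sets replicate 2 of *bli-1* against both Col-0 arrays, it was 0.42.

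*LHCB1.4* (AT2G34430) had the largest difference above Col-0. It read 11.88 and 12.81 (Col-0) against 13.05 and 13.48 (*bli-1*). The *bli-1* arrays were the higher ones, but the Col-0 arrays differed from each other by as much as the genotypes did. The log2 fold change was 0.92 ± 0.35 SE, with a 95% interval of 0.03 to 1.82 and an adjusted p of 0.483. It was 0.45 without replicate 1 of Col-0 and 1.36 without replicate 2 of Col-0.

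The other *LHCB1* genes lay closer to Col-0. *LHCB1.5* (AT2G34420) read 15.46 and 15.83 (Col-0) against 15.97 and 16.22 (*bli-1*), a log2 fold change of 0.45 ± 0.19 SE (adjusted p = 0.536). *LHCB1.1* (AT1G29920) read 15.15 and 15.55 (Col-0) against 15.60 and 15.86 (*bli-1*), with a difference of 0.38. In both genes the lowest *bli-1* array was above the highest Col-0 array. *LHCB1.2* (AT1G29910) also had no overlap, at 16.95 and 17.11 (Col-0) against 17.19 and 17.37 (*bli-1*), and differed by 0.25. *LHCB1.3* (AT1G29930) read 14.90 and 15.41 (Col-0) against 15.38 and 15.71 (*bli-1*), with a difference of 0.39, where 1 *bli-1* array fell below a Col-0 array. The 5 *LHCB1* genes thus all had a higher mean in *bli-1*, although *LHCB1.2* turned negative under both scalings to the 75th percentile. With the scaling done after background correction it was -0.06, against a median of all genes of -0.12. With the processed signal of the scanner the median of all genes was 0.27.

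Of the *LHCB2* genes, *LHCB2.2* (AT2G05070) read 13.49 and 14.12 (Col-0) against 14.08 and 14.39 (*bli-1*), with a difference of 0.43 ± 0.26 SE. *LHCB2.1* (AT2G05100) read 9.81 and 10.65 (Col-0) against 10.44 and 10.85 (*bli-1*), with a difference of 0.42 ± 0.32 SE. *LHCB2.3* (AT3G27690) read 14.35 and 14.59 (Col-0) against 14.22 and 14.61 (*bli-1*), with a difference of -0.05. The genotypes overlapped in all 3 genes. *LHCB3* (AT5G54270), the third protein of the trimer, read 14.20 and 14.55 (Col-0) against 14.58 and 15.01 (*bli-1*), with no overlap (0.42 ± 0.21 SE, adjusted p = 0.599).

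The monomeric antenna proteins *LHCB4*, *LHCB5* and *LHCB6* connect the trimers to the core of photosystem II. *LHCB4.3* (AT2G40100), also known as *LHCB8*, codes for a variant of the *LHCB4* protein CP29 with a shorter C terminus. It had the largest difference of all 46 genes, with 13.42 and 12.78 (Col-0) against 11.97 and 11.62 (*bli-1*). Both *bli-1* arrays were below both Col-0 arrays, and the level was 40.5% of that in Col-0. The log2 fold change was -1.31 ± 0.26 SE (95% interval -1.98 to -0.63), with an unadjusted p of 0.00415 and an adjusted p of 0.215 in limma. Only 1 probe measured this gene. Its log2 fold change was -1.48 on the shared slide, and between -1.61 and -0.98 when each array was left out in turn.

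The 2 close relatives of *LHCB4.3* did not show a difference of this size. *LHCB4.1* (AT5G01530) read 13.23 and 13.46 (Col-0) against 13.28 and 13.67 (*bli-1*), with a difference of 0.13 (95% interval -0.36 to 0.62). *LHCB4.2* (AT3G08940) read 14.19 and 14.66 (Col-0) against 14.27 and 14.76 (*bli-1*), with a difference of 0.09 (95% interval -0.55 to 0.73). *LHCB5* and *LHCB6* had log2 fold changes of 0.04 and 0.09.

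The antenna of photosystem I is built from *LHCA1* to *LHCA4*, whereas *LHCA5* and *LHCA6* are minor proteins that link photosystem I to the NDH complex. Over these 6 genes the median was 0.17 on the log2 scale, which turned negative under 3 of 17 alternative settings. *LHCA1* to *LHCA4* had means above Col-0, with log2 fold changes of 0.33, 0.11, 0.23 and 0.32, and only *LHCA1* had no overlap (15.06 and 15.43 in Col-0, 15.45 and 15.70 in *bli-1*). *LHCA6* (AT1G19150) went the other way, with 14.80 and 14.96 (Col-0) against 14.03 and 14.52 (*bli-1*). Both *bli-1* arrays were lower, at 65.6% of Col-0 on average (log2 fold change -0.61 ± 0.21 SE, 95% interval -1.13 to -0.08, adjusted p = 0.435). On the shared slide alone the difference of *LHCA6* was -0.37. *LHCA5* (AT1G45474) read 13.02 and 13.26 (Col-0) against 12.62 and 13.04 (*bli-1*), with overlap (-0.31 ± 0.20 SE, adjusted p = 0.635). Both minor genes were measured by 1 probe each.

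The *PSA* genes code for the stromal, membrane and lumenal subunits around the core of photosystem I. Their median was the closest to 0 of the 5 classes, and its sign changed under 3 of 17 alternative settings. All 12 log2 fold changes lay between -0.17 (*PSAL*) and 0.21 (*PSAO*), with a median of 0.04. For 9 of the 12 genes the 95% interval lay within 1.5-fold. Both *bli-1* arrays were above Col-0 for *PSAF*, the docking site of plastocyanin (0.13), for the lumenal *PSAN* (0.18) and for *PSAO* (0.21), and no gene lay below without overlap. *PSAF* had the opposite sign (-0.22) when the processed signal of the scanner was scaled to the 75th percentile. *PSAN* and *PSAO* also turned negative under 2 of 17 alternative settings each, with lowest values of -0.035 and -0.08. *PSAG* (0.04) and *PSAK* (0.05), membrane subunits on the sides of the complex, lay near 0.

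The *PSB* genes include the extrinsic proteins of the oxygen-evolving complex (*PSBO*, *PSBP*, *PSBQ*) and small membrane subunits. The 9 log2 fold changes lay between -0.29 and 0.08, with a median of 0.06, whose sign changed under 5 of 17 alternative settings. The lowest was *PSBY* (AT1G67740), a small membrane subunit, at 13.56 and 13.48 (Col-0) against 13.10 and 13.36 (*bli-1*), with a difference of -0.29 ± 0.15 SE (adjusted p = 0.610). *PSBY* and *PSBQ1* were the genes with both *bli-1* arrays below Col-0. *PSBY* turned positive (0.10) without scaling between the arrays, when the median of all genes was higher still (0.33). *PSBP1* (0.08), *PSBR* (0.05), *PSBX* (0.06) and *PSBW* (0.07) overlapped.

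The genes for Rubisco and its activase were on the other side of Col-0. For all 5 of them both *bli-1* arrays were below both Col-0 arrays, which held for 23% of everything tested, and their median log2 fold change was -0.19. The median was negative under each of 17 alternative settings, and -0.38 to -0.77 relative to the median of all genes under the 3 settings that moved that median by over 0.1. The 5 genes share arrays and are not independent of each other.

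*RCA* (AT2G39730) carried the largest difference of this class. It read 14.10 and 13.99 (Col-0) against 13.08 and 13.38 (*bli-1*). Both mutant arrays were lower by more than the spread within either genotype, and the level was 56.7% of that in Col-0. The log2 fold change was -0.82 ± 0.16 SE (95% interval -1.23 to -0.41), with an unadjusted p of 0.00377 and an adjusted p of 0.206 in limma. On the shared slide the difference was -0.67.

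The differences of the 4 *RBCS* genes were small under quantile normalization. *RBCS1A* (AT1G67090) read 17.23 and 17.31 (Col-0) against 17.16 and 17.07 (*bli-1*), with a difference of -0.15 ± 0.13 SE. *RBCS1B* (AT5G38430) read 17.38 and 17.26 (Col-0) against 17.11 and 17.14 (*bli-1*), with a difference of -0.19 ± 0.13 SE. The genotypes did not overlap in either gene. *RBCS2B* (AT5G38420) read 17.40 and 17.43 (Col-0) against 17.23 and 17.19 (*bli-1*), with a difference of -0.20 ± 0.13 SE. *RBCS3B* (AT5G38410) read 17.53 and 17.50 (Col-0) against 17.46 and 17.37 (*bli-1*), with a difference of -0.10 ± 0.13 SE. Under this normalization the 95% intervals of all 4 genes reached past 0 and stayed within 1.5-fold, and their adjusted p values lay between 0.632 and 0.771. All 4 log2 fold changes were negative under each of 17 alternative settings. The lowest value of each gene came from a scaling to the 75th percentile, between -0.47 (*RBCS3B*) and -0.60 (*RBCS2B*). The highest values lay between -0.08 (*RBCS2B*) and -0.0061 (*RBCS1B*). That of *RBCS1B* came from its brightest probe. Those of the other *RBCS* genes came without scaling between the arrays, when the median of all genes was 0.33.

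Many of these transcripts were measured by several probes, which makes it possible to look at a difference probe by probe. *RCA*, whose transcript is spliced into alternative forms, had 9 probes, and in all 9 both *bli-1* arrays were below both Col-0 arrays. The log2 fold changes of single probes ran from -1.17 at the probe with the lowest signal to -0.27 at the probe with the highest. Over the 9 probes, which share 4 arrays, signal and log2 fold change had a Pearson correlation of 0.98 and a Spearman correlation of 0.93. On the brightest probe alone the difference of *RCA* was 0.27 on the log2 scale in place of 0.82. Which splice forms each probe detects was not examined.

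**Figure D2:**
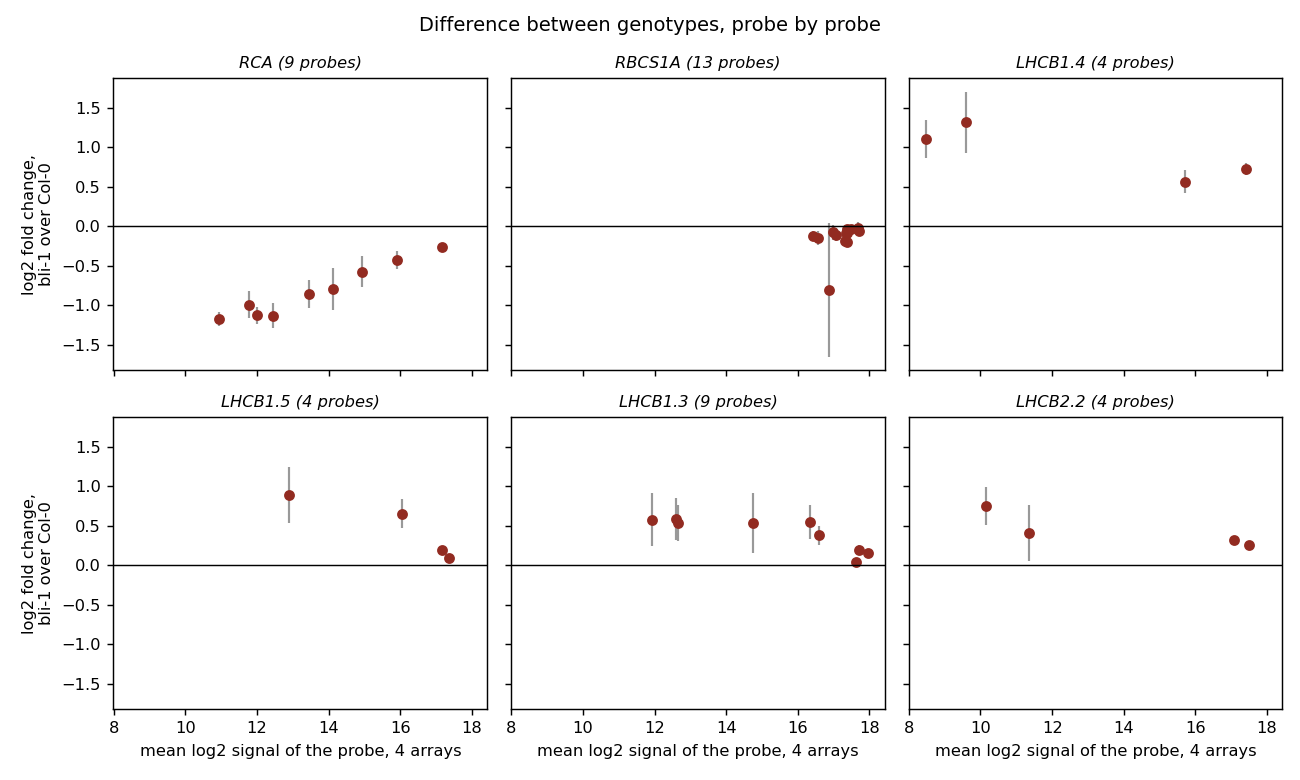
Log2 fold change of *bli-1* over Col-0 (vertical axis) for each probe of 6 genes, against the mean log2 signal of the probe over the 4 arrays (horizontal axis). Points are means and the vertical lines join the 2 *bli-1* arrays, each minus the Col-0 mean; in *RCA* the difference shrinks from -1.17 at the dimmest to -0.27 at the brightest of 9 probes, and in *RBCS1A* a single probe stands apart.

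The same trend was seen in several antenna genes, but not in all. The difference was larger at the brightest than at the dimmest probe in *LHCA2* (0.20 against 0.09) and *LHCA3* (0.28 against 0.20). The same held for *LHCB2.1* (0.70 against 0.14) and *LHCB6* (0.21 against 0.11), among others. On the side of the trend, the 4 probes of *LHCB1.5* had log2 fold changes of 0.88 at the lowest signal and 0.09 at the highest. The 9 probes of *LHCB1.3* went from 0.58 to 0.15 and the 4 probes of *LHCB2.2* from 0.75 to 0.25. The 4 probes of *LHCB1.4* all had *bli-1* above Col-0 without overlap, with 1.099 at the dimmest probe and 0.73 at the brightest. Among the 38 genes with several probes, the brightest probe was compared with the dimmest. It had the smaller difference, without its sign, in 22, and the smaller gap between the 2 Col-0 arrays in 30. The part of signal strength in the size of these differences was not tested.

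*RBCS1A* was averaged over 13 probes, 1 of which stood apart. That probe read 17.32 and 17.23 in Col-0 and 17.31 in replicate 1 of *bli-1*, but 15.63 in replicate 2. On the other probes the 2 *bli-1* arrays differed by at most 0.18. Without this probe, a choice made after the values were seen, *RBCS1A* read 17.23 and 17.32 (Col-0) against 17.15 and 17.19 (*bli-1*), and the log2 fold change went from -0.15 to -0.10 ± 0.13 SE, with the genotypes still apart.

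Several of the proteins are made from more than 1 gene, and copies of a gene may share signal on probes of similar sequence. The copies were compared through the difference of their log2 signals, array by array, over 27 pairs in 9 groups. With 2 arrays against 2, an exact two-sided permutation test cannot go below p = 0.33, so none of these differences could pass a threshold of 0.05, before or after adjustment. *LHCB4.3* was apart from both other *LHCB4* genes, with differences of 1.44 from *LHCB4.1* and 1.395 from *LHCB4.2* (exact permutation p = 0.33 for each, higher in the other gene on both *bli-1* arrays).

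**Figure D3:**
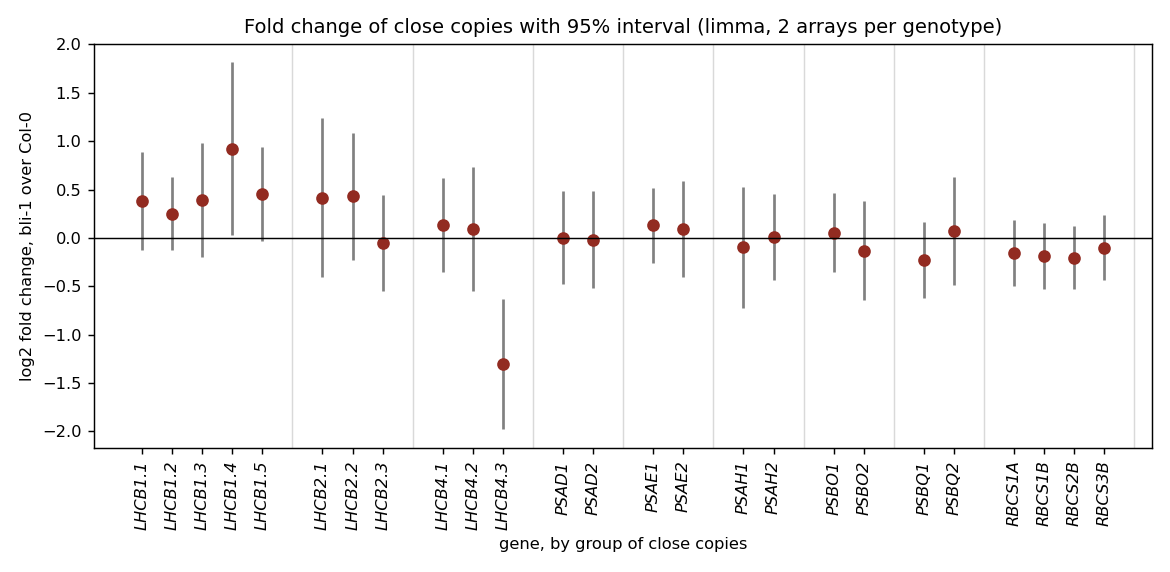
Log2 fold change of *bli-1* over Col-0 (vertical axis, points) with the 95% interval from limma (lines) for the genes that have close copies, grouped by protein (horizontal axis). *LHCB4.3* at -1.31 lies apart from *LHCB4.1* and *LHCB4.2*, whereas the copies of *PSAD*, *PSAE* and *RBCS* lie within 0.10 of each other.

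*LHCB1.4* had a log2 fold change 0.47 higher than *LHCB1.5*, the gene next to it on chromosome 2, and 0.53 to 0.67 higher than the other *LHCB1* genes (exact permutation p = 0.33 for each). The difference from *LHCB1.5* was 0.18 without replicate 1 of Col-0 and 0.72 without replicate 2 of Col-0. *LHCB2.1* and *LHCB2.2*, which are neighbors, differed from each other by 0.02, and from *LHCB2.3* by 0.47 and 0.49. For *LHCB2.2* the difference was 0.28 without replicate 1 and 0.68 without replicate 2 of Col-0. In the 5 pairs of photosystem subunits the gaps were small. *PSAD1* (AT4G02770) read 12.81 and 12.88 (Col-0) against 12.63 and 13.07 (*bli-1*), *PSAD2* (AT1G03130) read 14.22 and 14.46 (Col-0) against 14.11 and 14.53 (*bli-1*), and their log2 fold changes differed by 0.02. *PSAE1* (AT4G28750) read 15.39 and 15.41 (Col-0) against 15.40 and 15.66 (*bli-1*), *PSAE2* (AT2G20260) read 15.26 and 15.34 (Col-0) against 15.17 and 15.62 (*bli-1*), and they differed by 0.04. Proteins of both pairs form the side of photosystem I where ferredoxin binds.

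*PSAH1* (AT3G16140) read 13.92 and 14.03 (Col-0) against 13.56 and 14.20 (*bli-1*), *PSAH2* (AT1G52230) read 13.48 and 13.45 (Col-0) against 13.29 and 13.67 (*bli-1*), and *PSAH2* was higher by 0.11 in its log2 fold change (exact permutation p = 0.667). *PSBO1* (AT5G66570) read 15.89 and 16.01 (Col-0) against 15.87 and 16.15 (*bli-1*), *PSBO2* (AT3G50820) read 12.69 and 13.04 (Col-0) against 12.56 and 12.91 (*bli-1*), and *PSBO1* was higher by 0.19 (exact permutation p = 0.33). The largest gap among these pairs was that of the *PSBQ* genes. *PSBQ1* (AT4G21280) read 16.12 and 15.89 (Col-0) against 15.71 and 15.84 (*bli-1*), *PSBQ2* (AT4G05180) read 14.19 and 14.29 (Col-0) against 14.04 and 14.59 (*bli-1*), and *PSBQ2* was higher by 0.30 (exact permutation p = 0.667). The difference of *PSBQ1* minus *PSBQ2* was -0.52 without replicate 1 and -0.097 without replicate 2 of *bli-1*. The 4 *RBCS* genes, 3 of which lie next to each other on chromosome 5, differed among themselves by 0.10 at most.

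Other genes of photosynthesis, in lists set by function, were read beside the 46 genes. No gene of these lists was called, and over everything tested 23% lay below and 21.1% above Col-0 without overlap, and 2.69% were lower and 2.5% higher at 1.5-fold and an unadjusted p below 0.05. With the slide as a block, when 16.7% of everything tested was called, 2 genes of chlorophyll synthesis, 3 of breakdown, 2 of the Calvin cycle, 1 of electron transport, 2 of Rubisco assembly, 1 of the other photosystem genes, 2 regulators and 9 root markers were called. In the Calvin cycle list the median was -0.50 on the log2 scale, with 16 of 17 genes lower in *bli-1* and 15 of 17 below Col-0 without overlap (23% of everything tested). Its median was negative under each of 17 alternative settings, and -0.38 on the shared slide. At 1.5-fold and an unadjusted p below 0.05, 5 of the 17 genes were lower and none higher (2.69% and 2.5% of everything tested). The largest differences were those of *SBPASE*, a regulated enzyme of the regeneration of the CO2 acceptor (-0.79 ± 0.15 SE, adjusted p = 0.202), the aldolase *FBA1* (-0.77 ± 0.18 SE, adjusted p = 0.274) and *CP12-2*, which binds Calvin cycle enzymes in the dark (-0.69 ± 0.17 SE, adjusted p = 0.281).

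The list of Rubisco assembly genes had a median of -0.41, with 13 of 14 genes lower and 9 of 14 below Col-0 without overlap (23% of everything tested). Its 3 lowest genes code for subunits of the chloroplast chaperonin that folds Rubisco. *CPN60A1* read 12.84 and 12.10 (Col-0) against 10.68 and 10.69 (*bli-1*), or 29.1% of Col-0 (-1.78 ± 0.26 SE, adjusted p = 0.128). *CPN60B2* (-0.87 ± 0.15 SE, adjusted p = 0.172) and *CPN60B1* (-0.68 ± 0.25 SE, adjusted p = 0.472) were also below Col-0 on both *bli-1* arrays. The other chaperonin genes of the list lay closer to Col-0, with log2 fold changes of -0.05 for *CPN60A2*, -0.13 for *CPN60B3*, -0.26 for *CPN20* and -0.0013 for *CPN10*. In this list 5 genes were lower at 1.5-fold and an unadjusted p below 0.05 (2.69% of everything tested), and none was higher.

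Electron transport and ATP synthase genes had a median of -0.27, with 14 of 15 lower and 9 of 15 below without overlap (23% of everything tested), and a median of -0.11 on the shared slide. At 1.5-fold and an unadjusted p below 0.05, 2 were lower, the ferredoxin *FD1* (-0.65 ± 0.13 SE, adjusted p = 0.215) and *PGRL1A* of cyclic electron flow (-0.62 ± 0.18 SE, adjusted p = 0.350), and none was higher. Other photosystem and LHC-like genes had a median of -0.26, with 15 of 15 lower and 10 of 15 below without overlap (23% of everything tested). Here 3 were lower at that threshold, namely *PSBS*, which is needed for the dissipation of excess light energy (-0.78 ± 0.14 SE, adjusted p = 0.186), *LIL3:1* (-0.69 ± 0.18 SE, adjusted p = 0.305) and *PPL2* (-0.67 ± 0.20 SE, adjusted p = 0.367). The medians of these lists and of the assembly list were above 0 without scaling between the arrays, when the median of all genes was 0.33.

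**Figure D4:**
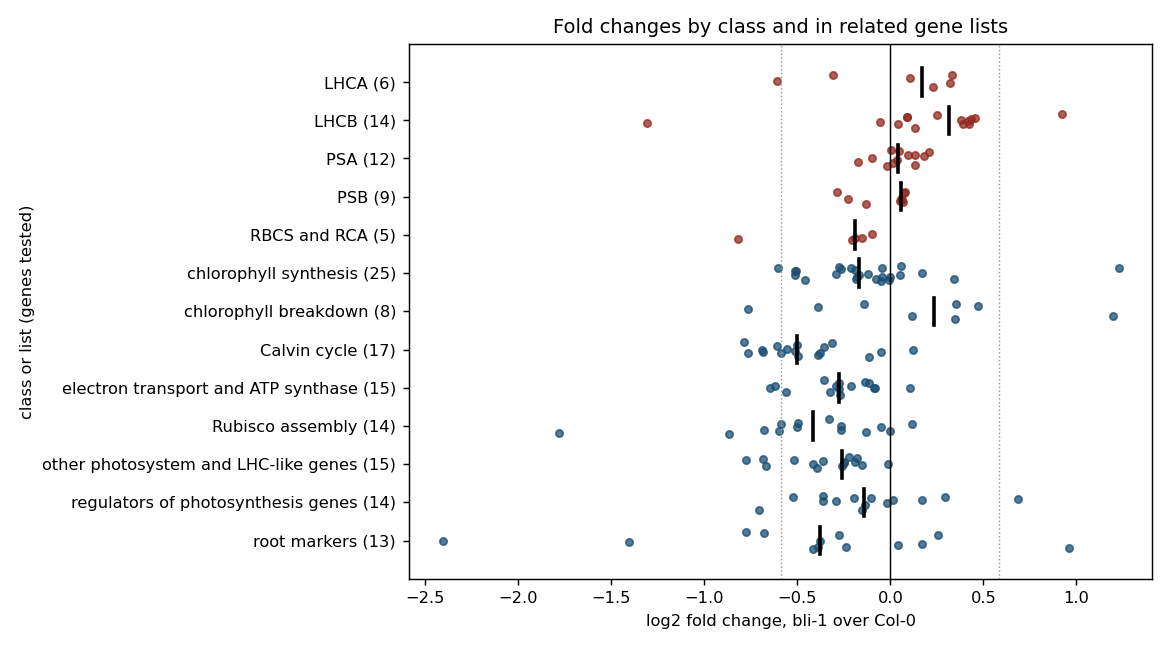
Log2 fold change of *bli-1* over Col-0 (horizontal axis) of each gene in the 5 classes of the 46 genes (red) and in the lists of other genes (blue), with the number of genes tested in brackets (vertical axis). Bars are medians and the dotted lines mark 1.5-fold; the *LHCB* median is 0.32, the *PSA* and *PSB* medians are near 0, and the Calvin cycle median is -0.50.

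The genes of chlorophyll metabolism were mixed. Chlorophyll synthesis had a median of -0.17, with 20 of 25 genes lower, 9 of 25 below and 2 of 25 above Col-0 without overlap (23% and 21.1% of everything tested), and a median of 0.00 on the shared slide. *PORA*, the protochlorophyllide reductase of seedlings grown in the dark, read 6.60 and 6.76 (Col-0) against 8.03 and 7.79 (*bli-1*), with a difference of 1.23 ± 0.16 SE (adjusted p = 0.106). At least 1 of its 3 probes was well above background on every array, but all 3 on only 2 of the 4 arrays. The related *PORC* had a log2 fold change of -0.60 ± 0.22 SE (adjusted p = 0.475). These 2 were the only synthesis genes at 1.5-fold and an unadjusted p below 0.05. Chlorophyll breakdown had a median of 0.23, positive under each of 17 alternative settings. Of its 8 genes 5 were higher, and 5 lay above and 2 below Col-0 without overlap (21.1% and 23% of everything tested). *SGR2* read 7.23 and 7.33 (Col-0) against 8.46 and 8.49 (*bli-1*), with a difference of 1.19 ± 0.13 SE (adjusted p = 0.0815). *HCAR*, for an enzyme that turns chlorophyll b back into chlorophyll a, went the other way (-0.76 ± 0.16 SE, adjusted p = 0.235).

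Among the regulators, *GLK1* and *GLK2* code for transcription factors that activate antenna and chlorophyll genes, and *HY5* for a factor of light signaling. Their log2 fold changes were -0.36 ± 0.23 SE, -0.14 ± 0.19 SE and 0.02 ± 0.19 SE, and the genotypes overlapped in all 3 genes. None of the 14 regulators tested passed 1.5-fold at an unadjusted p below 0.05. Without overlap, 2 lay above and 5 below Col-0 (21.1% and 23% of everything tested). The median was -0.14, or -0.057 on the shared slide. *SIG1* had no assigned probe here.

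Because whole seedlings hold roots as well as green tissue, 14 root markers were read beside these genes, of which 13 had probes. All 13 had at least 1 probe well above background on each array. On the log2 scale their summed level was 15.97 and 15.84 on the Col-0 arrays, against 16.42 and 15.63 on those of *bli-1*. By this sum the *bli-1* arrays lay on either side of Col-0. The sum weights genes by their probe signal, and most by *PYK10* and *DR4* (14.83 and 14.70 in replicate 1 of *bli-1*). The median log2 fold change was -0.38, with 4 higher and 9 lower, with medians of 0.12 without replicate 2 of *bli-1* and -0.79 on the shared slide. The most extreme were *DR4*, a protease inhibitor homolog (0.96 ± 0.26 SE, adjusted p = 0.339), and the peroxidase gene AT1G05240 (-2.41 ± 0.47 SE, adjusted p = 0.202). Replicate 1 of *bli-1*, which had the lower signals of the 46 genes in 41 cases, had the higher sum of root markers. The part of tissue make-up in the differences was not tested.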

How the data were processed

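Total RNA was labeled with Cy3 and hybridized to single color arrays. The deposited files hold the scanner's raw intensity per spot (Agilent Feature Extraction 11.0.1.1), before any normalization by the authors, with background intensity and flags as other columns. According to the methods, the authors used background correction, quantile normalization and empirical Bayes statistics of limma. Here, normexp (offset 50) was applied to median intensities, control spots and outlier-flagged spots were left out, arrays were quantile normalized, log2 values were averaged over the spots of a probe and the probes of a gene, and genotypes were compared with limma 3.58.1 in R 4.3.3 (2 arrays each, no covariate, 3.02 prior degrees of freedom). Of 35703 spots with a RefSeq accession, 34432 matched a locus of the RefSeq annotation (assembly TAIR10.1). This annotation was used to assign spots to genes, and for names and gene order. The 2 arrays per genotype limit the precision. The scripts were tested on simulated data. Members and lists were chosen with earlier results of these data known. Single-array values are given for the 5 largest differences in each direction, genes at an unadjusted p below 0.05, *RBCS1A*, *RCA* and genes with close copies. Of the other lists, up to 3 genes per direction at that p and 1.5-fold, with *GLK1*, *GLK2* and *HY5*, are named, most by fold change only; the other chaperonin genes were named after their values were seen. Alternatives were other background corrections, scalings, filters, probe summaries, moderation, slide or replicate number as a block, and leaving out each array.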

Additional observations from a re-analysis of the deposited data

How the results depend on the processing

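The count of genes called among the 46 was 0 under most alternatives, 4 at an unadjusted p, 4 with the slide as a block (*LHCB1.4* 1.13, *LHCB3* 0.64, *LHCB4.3* -1.48, *RCA* -0.67) and 0 to 2 when an array was left out, with the 2 (*LHCB4.3*, *RCA*) without replicate 1 of *bli-1*. In both of these fits, the block and the omission, 1 *bli-1* array is set against Col-0 and assumed to vary like Col-0, and 5728 (16.7%) and 5208 (15.2%) of all genes and transcripts were called. Over the whole array 43 were called, 12 with an offset of 16, 99 without scaling, 136 with a filter on dim probes, 128 with trend and robust moderation, and 0 with an offset of 0, either processed signal, 75th percentile scaling or without either Col-0 array or replicate 2 of *bli-1*.

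With the replicate number as a block none of the 46 genes and 2 of all genes were called. The labels do not say that a number pairs samples, and deviations of same-numbered arrays correlated at 0.07 over all genes. Among the 46 genes, replicate 2 was above replicate 1 for 41 in *bli-1*, 39 in Col-0 and 36 in both, which was not counted over all genes.

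Without scaling between arrays the median log2 fold change was 0.36 for all 46 genes, 0.49 for *LHCA*, 0.37 for *PSA*, 0.27 for *PSB* and -0.056 for *RBCS* and *RCA*, with a median of 0.33 over all genes. With the processed signal scaled to the 75th percentile (median of all genes 0.27) it was -0.18 for all 46, -0.25 for *PSB* and -0.50 for *RBCS* and *RCA*, and *PSAF* turned to -0.22. With 75th percentile scaling after normexp (median of all genes -0.12) it was -0.17 for *PSB* and -0.50 for *RBCS* and *RCA*. *RBCS* and *RCA* had -0.14 with the processed signal quantile normalized, -0.11 with the brightest probe and -0.22 with the median of probes. Leaving out each array gave 0.068 to 0.46 for *LHCB* and -0.086 to 0.13 for *PSB*. Of 782 values of single genes under the alternatives, 775 stayed on their side of the threshold without a reversal, 6 newly passed it and 1 (*PSAF*) reversed. A reversal was read only where both values were larger than their SE, and the 775 include 99 sign changes where either value was smaller than its SE. Genes of the other lists were called in both fits that set 1 *bli-1* array against Col-0, the slide block and the omission of replicate 1 of *bli-1*. Outside those fits, 1 chlorophyll synthesis gene was called with the brightest probe and 1 breakdown gene with the filter on dim probes. The causes were not tested.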
